A study of Mus musculus with 12 samples.

Results

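The genes described here encode the ion transporters, ion channels and water channels from which epithelia build fluid secretion. They were picked by symbol: the Slc4 (without Slc4a1), Slc9, Slc12 and Slc26 carriers, the Clcn and Ano (anoctamin) chloride channels, the 3 Scnn1 subunits of the epithelial sodium channel, Cftr, the aquaporins, the sodium pump subunits (Atp1a and Atp1b) and their FXYD partners. This gave 86 of the 43280 genes in the count table, and the rule used symbols, not measured values. Of these 86, 67 passed the filter on low counts and were tested.

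The RNA was from embryonic day 15 mouse submandibular glands of the strain Tg(KRT5-Venus)1Sgkd, in which the keratin 5 promoter drives the fluorescent protein Venus. Cells with surface E-cadherin (Ecad+) were sorted by Venus (K5) and by Kit, a receptor tyrosine kinase, into 4 groups of 3 libraries each: cells with both markers (Kit+K5+), Kit alone (Kit+K5-), Venus alone (Kit-K5+) or neither (Kit-K5-). All groups carried the transgene, and the labels name no treatment. The sources used here do not say how many glands or litters went into a library, so p-values measure the spread between these libraries, which may in part be technical.

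Salivary fluid is made in steps. A sodium-potassium-chloride cotransporter on the basolateral side, helped by paired chloride-bicarbonate and sodium-proton exchangers and powered by the sodium pump, loads the acinar cell with chloride. Chloride leaves through apical calcium-activated channels, sodium and water follow, water through aquaporins, and ducts later reclaim sodium and chloride and add bicarbonate. Acini and ducts of the mouse submandibular gland are still forming at this stage of gestation.

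The libraries held 5589037 to 13724364 counts. Kit RNA matched the sort, at 283 to 445 CPM (counts scaled to library size, with TMM scaling between libraries) in the 6 Kit+ libraries and 10.03 to 26.4 CPM in the 6 Kit- libraries. Krt5 RNA was low throughout and did not separate the Kit+ groups: it stood at 1.57, 9.93 and 4.26 CPM in Kit+K5+ and 0.317, 4.63 and 2.33 CPM in Kit+K5-, whereas Kit-K5+ had 13.5 to 22.9 and Kit-K5- 0.853 to 7.15 CPM. The Kit-K5- libraries stood apart from the other 9. Mitochondrial genes took 5.59%, 9.40% and 12.2% of their counts and 10.96% to 30.9% elsewhere, the Kit-K5- library being the lowest of each run of library numbers (1 to 4, 5 to 8 and 9 to 12). The 18 genes of epithelial cells in general summed to 500 to 636 CPM there and to 1667 to 3391 CPM elsewhere, and Cdh1, the gene of E-cadherin, to 149 to 198 against 503 to 1111 CPM. The 14 mesenchyme genes summed to 12361 to 19721 CPM in Kit-K5- and 492 to 1046 CPM elsewhere. All 14 were detected in Kit-K5-, the lowest being Twist2 and Thy1, at 1.92 and 3.45 CPM or more. Leukocyte (11 genes), erythroid (8) and neuronal (10) genes also had their highest group means there, at 619 ± 584, 353 ± 374 and 121 ± 60.5 CPM (mean ± SD, n = 3). In library 1 of Kit+K5- the 8 mast cell genes, a Kit-bearing lineage, summed to 5135 CPM, against 218 and 120 CPM in the other Kit+K5- libraries and 2.75 to 47.8 CPM in the other 9. In bulk RNA, fewer cells of a type and less RNA per cell cannot be told apart. Each comparison with Kit-K5- below moves together with these marker sums and the mitochondrial share, and their part in it was not tested.

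In CPM per kilobase of exon, the scale on which genes can be compared, sodium pump subunits were among the most abundant. Averaged over the 12 libraries, the beta subunits Atp1b3 and Atp1b1 stood at 66.7 and 25.03, the cotransporter Slc12a2 at 16.4, the endosomal chloride-proton exchanger Clcn5 at 15.0, Ano6 at 10.6, Fxyd3 at 8.99 and the calcium-activated channel Ano1 at 7.88 CPM per kilobase. Aqp5, the apical water channel of adult acini, stood at 4.42 CPM per kilobase, rank 16 of the 86.

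The other 19 genes fell below the filter on low counts. Summed over all 12 libraries, counts among these were 1 for Aqp2, 2 for Aqp12, 12 for Aqp8, 14 for Aqp6, 39 for Aqp3, 59 for Aqp7, 77 for Aqp9 and 104 for Aqp1. They were 21 for the bicarbonate exchanger Slc26a4, 86 for Slc26a3, 34 for Slc4a9, 39 for Slc9a4 and 65 for the thiazide-sensitive cotransporter Slc12a3. Scnn1b had 86, Atp1b4 33, Fxyd2 25 and Fxyd7 20 counts. Of these genes, Aqp1, a water channel of endothelium and other cells, was at 2.95, 2.60 and 0.715 CPM in Kit-K5- and at most 0.500 CPM elsewhere. Endothelial marker sums were 50.1 to 60.0 CPM in Kit-K5- and 9.96 to 25.8 CPM elsewhere. Of the 7 endothelial markers tested, 0 passed for Kit-K5+ against Kit-K5- (16.5% of all genes did). For Kit+K5- against Kit-K5-, 2 were lower (21.3% of all genes passed). Pecam1 was at 3.27 to 6.82 CPM in Kit-K5- and 2.86 to 9.76 CPM elsewhere. Erythroid marker sums were 137 to 785 CPM in Kit-K5- and 11.4 to 25.6 CPM elsewhere. The part of these cell types in the Aqp1 values was not tested.

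Most differences lay between Kit-K5- and its neighbours. Tests were edgeR's quasi-likelihood test over all genes with Benjamini-Hochberg adjustment, called at an adjusted p under 0.05, and differences are log2 ± SE. Of the 67 genes tested, 12 differed between Kit-K5+ and Kit-K5- (4 higher and 8 lower in Kit-K5+), which is 17.9% against 16.5% of all 17030 genes tested (7.38% higher and 9.1% lower). Between Kit+K5- and Kit-K5- the count was 18 (7 higher and 11 lower in Kit+K5-), or 26.9% against 21.3% of all genes (10.2% higher and 11.1% lower). The test among all 4 groups called 18, against 25.7% of all genes. These shares are near those of all genes, so the counts say nothing particular about ion transport genes, and the results are which members lie on which side. Within Kit+ cells, K5+ against K5- called 0 of 67 with edgeR and 0 with DESeq2, and edgeR called 0.0% of all genes. At an unadjusted p under 0.05 there were 4 members, 5.97% against 6.82% of all genes. Within K5+ cells, Kit+ against Kit- called 0 with edgeR, against 0.658% of all genes, and 5 with DESeq2. At an unadjusted p under 0.05 there were 14 members, 20.9% against 18.5% of all genes. Leaving out libraries 5 to 8 together lowered the counts against Kit-K5- to 2 and 5. For DESeq2 and the left-out libraries the share of all genes called is not given. Those counts therefore say nothing particular about ion transport genes. A second fit held a term for each run of library numbers, called the block on runs, and its counts were 0 for K5 in Kit+ cells (0.317% of all genes), 18 for K5 in Kit- cells (23.8%), 23 for Kit in K5- cells (29.2%) and 25 among the 4 groups (36.8%), and no call was lost. The block also called 2 for Kit in K5+ cells (4.63% of all genes): Clcn5 higher in Kit+ cells (log2 difference 0.71 ± 0.16 (SE), adjusted p = 0.0294) and Slc12a4 lower (-1.71 ± 0.38, adjusted p = 0.0297).

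**Figure D1:**
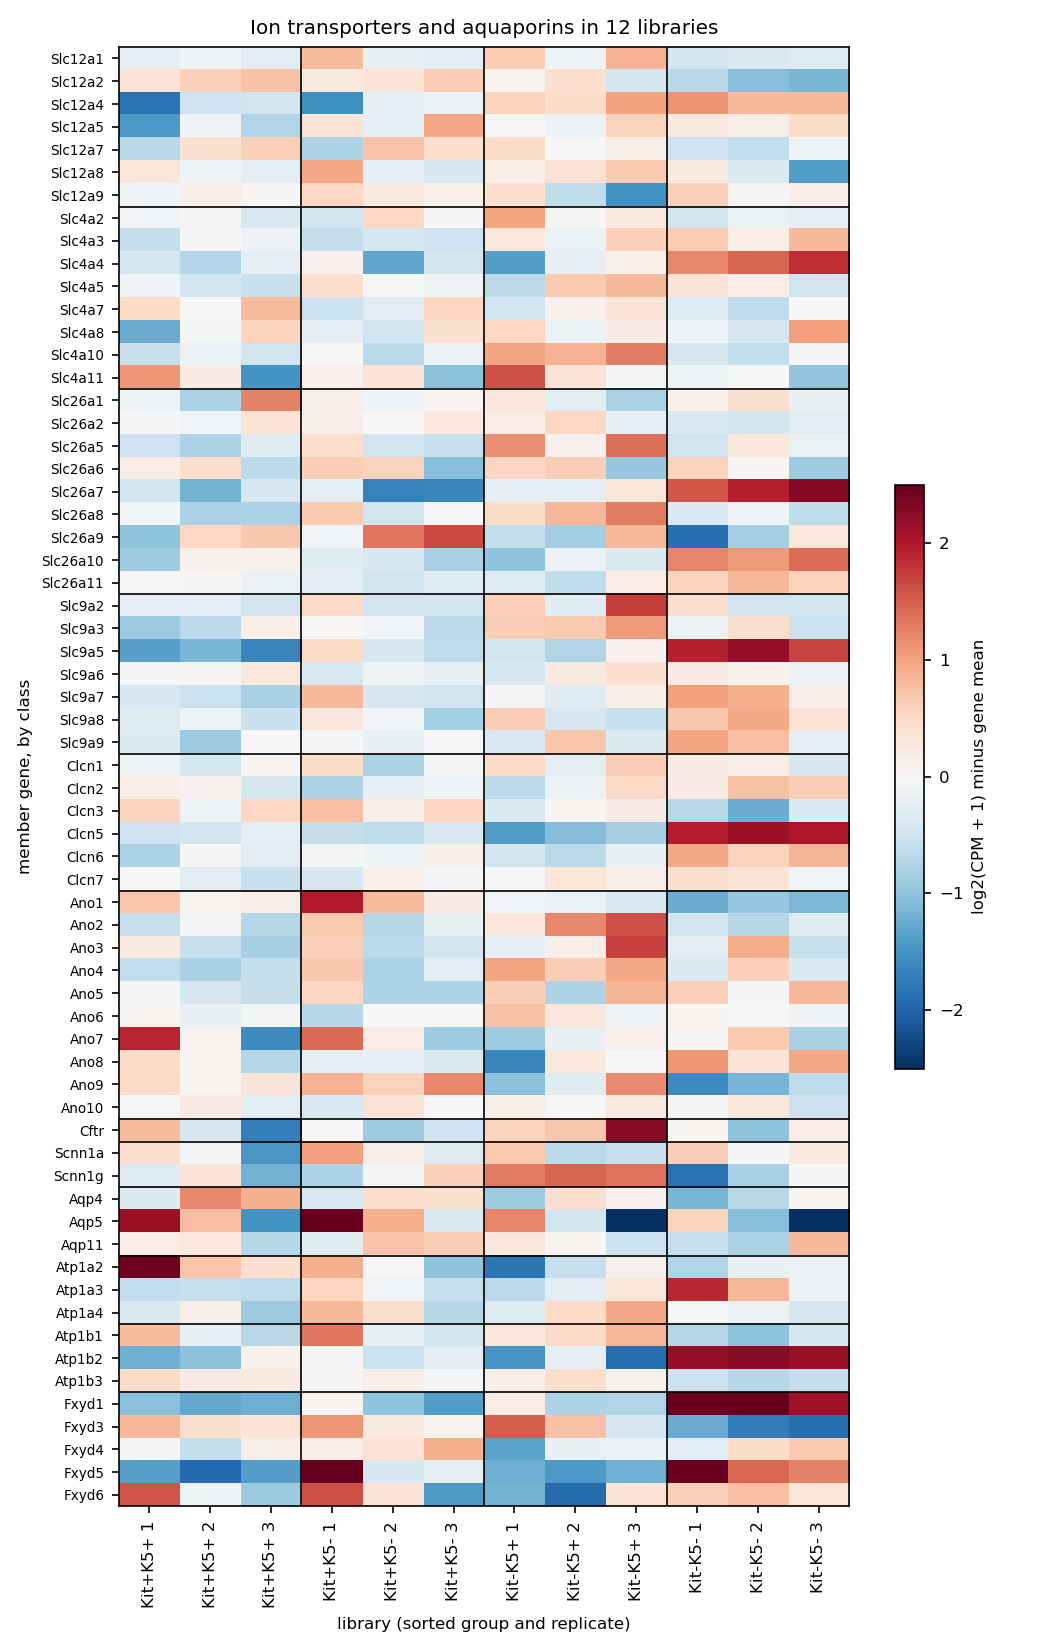
Heat map of 64 tested genes (rows, grouped by class with lines between classes) in the 12 libraries (columns, 3 per sorted group); colour gives log2(CPM + 1) minus the gene's mean over the 12 libraries. The 3 Kit-K5- columns are red at Clcn5, Slc9a5, Slc26a7, Slc4a4, Atp1b2 and Fxyd1, and blue at Slc12a2, Ano1 and Fxyd3 on this TMM scale (scaled to epithelial genes, Slc12a2 turns in both comparisons with Kit-K5- and Ano1 in that of Kit-K5+).

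The scale of the comparison matters for the direction of some genes. TMM scaling set the median difference of all tested genes near 0 in each comparison (0.04 for Kit-K5+ minus Kit-K5- and 0.05 for Kit+K5- minus Kit-K5-, log2). When each library was scaled instead to the 18 general epithelial genes, which are themselves low in Kit-K5-, these medians moved to -1.71 and -2.02. The median of the 67 members moved from 0.20 to -1.60 and from 0.08 to -2.13. Relative to epithelial RNA, 57 and 61 of the 67 members then lay below 0, on the side of a higher level in Kit-K5-, against 31 and 31 on the TMM scale. The sign differed between the scales for 26 and 30 members, of which 11 and 20 passed the test on 1 scale or both. Differences and tests are given on the TMM scale unless the epithelial scale is named.

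The most abundant cotransporter per length was Slc12a2 (NKCC1, the basolateral sodium-potassium-chloride cotransporter on which salivary secretion depends). Its levels were 211, 250 and 272 CPM in Kit+K5+, 193, 204 and 252 in Kit+K5-, 174, 219 and 119 in Kit-K5+, and 101, 77.4 and 73.8 in Kit-K5-. All 9 libraries of the first 3 groups lay above the 3 Kit-K5- libraries. On the TMM scale Slc12a2 was 2.03-fold higher in Kit-K5+ (log2 1.02 ± 0.23, adjusted p = 0.00932) and 2.58-fold higher in Kit+K5- (1.37 ± 0.23, adjusted p = 0.00113) than in Kit-K5-, but scaled to the epithelial genes the signs turned, to -0.76 and -0.68, neither past the threshold. The call in Kit- cells was lost without library 2 of either group (0.79 and 0.95).

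Potassium-chloride cotransporters carry chloride out of cells and set cell volume. Slc12a4 (KCC1) stood at 4.15, 11.9 and 12.02 CPM in Kit+K5+ and 5.39, 14.6 and 15.6 in Kit+K5-, against 26.4, 24.2 and 36.0 in Kit-K5+ and 39.3, 31.1 and 31.4 in Kit-K5-. It thus split by Kit: every Kit+ library lay below every Kit- library. The difference was -1.52 ± 0.43 among K5- cells (log2, adjusted p = 0.0223) and -1.63 ± 0.43 among K5+ cells (adjusted p = 0.0908), where it passed with the block on runs. The first call was lost without library 1 of Kit+K5- or of Kit-K5-.

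Slc12a7 (KCC4) passed no comparison on the TMM scale, at 21.7 ± 4.10 CPM in Kit-K5- and 33.5 ± 14.2 to 34.6 ± 16.3 elsewhere. On the epithelial scale its differences from Kit-K5- turned, to -1.09 for Kit-K5+ (adjusted p = 0.0636) and -1.30 for Kit+K5- (adjusted p = 0.0274).

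Slc4a2 and Slc4a7 passed no pairwise comparison on the TMM scale. The basolateral chloride-bicarbonate exchanger Slc4a2 (AE2) stood at 29.1, 31.0 and 23.1 CPM in Kit+K5+, 21.8, 43.6 and 29.3 in Kit+K5-, 60.8, 31.0 and 36.2 in Kit-K5+, and 21.6, 26.8 and 25.8 in Kit-K5-, where adjusted p was 0.0952 or more in each pairwise comparison. Each Kit-K5+ value of Slc4a2 exceeded each of Kit-K5- on the TMM scale. On the epithelial scale the differences from Kit-K5- turned, to -0.97 for Kit-K5+ (adjusted p = 0.0347) and -1.69 for Kit+K5- (adjusted p = 0.00104). Of the Slc4a2 exon bases 13.7% overlap genes on the opposite strand, mainly Fastk, whose group means were 26.5 to 35.7 CPM, so its counts are uncertain. The sodium-bicarbonate cotransporter Slc4a7 (NBCn1) gave, in the same order of groups, 113, 80.1 and 139, 54.3, 65.0 and 116, 55.8, 86.1 and 99.3, and 63.5, 50.6 and 80.0 CPM, with adjusted p of 0.466 or more. It too turned on the epithelial scale, to -1.40 for Kit-K5+ (adjusted p = 0.0108) and -1.67 for Kit+K5- (adjusted p = 0.00314).

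The electrogenic sodium-bicarbonate cotransporter Slc4a4 (NBCe1, on chromosome 5 from 88886818 to 89239653, GRCm38), which supplies bicarbonate in pancreatic and salivary ducts, was highest in Kit-K5-. It stood at 61.1, 72.4 and 95.8 CPM there and at 18.8, 15.1 and 21.7 in Kit+K5+, 28.0, 9.90 and 18.6 in Kit+K5-, and 9.38, 22.1 and 28.1 in Kit-K5+. No library of the other groups reached the lowest Kit-K5- value. The differences were -1.95 ± 0.41 for Kit-K5+ (adjusted p = 0.00601) and -2.02 ± 0.41 for Kit+K5- (adjusted p = 0.00355), both negative also on the epithelial scale.

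Slc4a3 (AE3), an anion exchanger best known from heart and brain, was at 11.5, 17.5 and 16.2 CPM in Kit+K5+, 11.6, 13.1 and 12.2 in Kit+K5-, 21.9, 15.8 and 27.5 in Kit-K5+, and 28.6, 20.5 and 32.4 in Kit-K5-. The Kit+K5- values lay below all Kit-K5- values, with a log2 difference of -1.14 ± 0.29 (adjusted p = 0.0142, lost without Kit-K5- library 1 or 3). Slc4a10, a neuronal sodium-bicarbonate carrier, passed only the test among the 4 groups (adjusted p = 0.0450), at 2.501, 2.198 and 3.252 CPM in Kit-K5+ and 0.105 to 0.740 CPM in the other 9 libraries. These are low levels. Slc4a10 passed the filter on low counts only through the Kit-K5+ libraries, so the call is no independent support for its higher level there. The other tested Slc4 genes, Slc4a5, Slc4a8 and Slc4a11, passed no comparison.

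Among the sodium-proton exchangers, 1 of 8 tested passed in the comparisons of Kit-K5+ and Kit+K5- with Kit-K5-. Of all genes 16.5% and 21.3% passed these. Slc9a5 (NHE5), known mainly from neurons and recycling endosomes, stood at 18.8, 22.9 and 15.6 CPM in Kit-K5-, against 1.01, 1.35 and 0.646 in Kit+K5+, 6.24, 2.95 and 2.33 in Kit+K5-, and 2.75, 2.06 and 4.59 in Kit-K5+. The Kit+K5+ libraries were the lowest and did not overlap any other group. Its differences were -2.62 ± 0.49 for Kit-K5+ (adjusted p = 0.00306) and -2.31 ± 0.48 for Kit+K5- (adjusted p = 0.00423) against Kit-K5-. Slc9a8, an exchanger of the Golgi and endosomes, was at 40.9 ± 8.38 CPM in Kit-K5- and 22.8 ± 8.71 in Kit+K5- (adjusted p = 0.115, and 0.0247 with the block on runs). The apical exchangers of intestine and kidney were near the limit of detection, Slc9a2 at 0 to 3.63 and Slc9a3 at 0.0922 to 3.25 CPM.

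The mix of beta subunits, which fold the pump and bring it to the membrane, differed in Kit-K5-. Atp1b3 stood at 214, 179 and 182 CPM in Kit+K5+, 158, 174 and 152 in Kit+K5-, 174, 210 and 167 in Kit-K5+, and 106, 93.2 and 102 in Kit-K5-. The 3 Kit-K5- libraries lay below the other 9. Kit-K5+ exceeded them by 0.87 ± 0.17 (log2, adjusted p = 0.00389) and Kit+K5- by 0.68 ± 0.17 (adjusted p = 0.0117, lost without library 2 of either group) on the TMM scale, and both turned, to -0.89 (adjusted p = 0.0179) and -1.39 (adjusted p = 8.37e-04), on the epithelial scale, where they passed in the opposite direction. Atp1b1, the common epithelial partner, varied more within groups, at 119, 58.8 and 41.6, 171, 60.03 and 49.2, 83.5, 95.8 and 122, and 41.3, 33.3 and 49.7 CPM in the same order. Its Kit-K5+ values exceeded those of Kit-K5- (1.28 ± 0.45, adjusted p = 0.0676, and 0.0224 with the block on runs, turning to -0.44 on the epithelial scale). Of its exon bases 18.7% overlap Nme7 on the opposite strand, at 8.87 to 15.3 CPM in the group means, so its counts too are uncertain.

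Atp1b2 (chromosome 11, 69599736 to 69605942), the beta subunit best known from glia and adhesion, went the other way. It stood at 45.1, 47.0 and 43.4 CPM in Kit-K5-, against 3.32, 3.95 and 9.82 in Kit+K5+, 8.67, 5.90 and 7.28 in Kit+K5-, and 2.63, 7.69 and 1.72 in Kit-K5+. The other 9 libraries all lay below the Kit-K5- libraries. Kit-K5+ was 11.1-fold lower (log2 -3.47 ± 0.53, adjusted p = 7.39e-04) and Kit+K5- 6.19-fold lower (-2.63 ± 0.51, adjusted p = 0.00254), and every alternative kept both calls. Per kilobase, Atp1b2 made up 16.7% ± 1.86 of beta subunit signal in Kit-K5- and 0.859% ± 0.619 to 1.82% ± 0.337 in the other groups. This share needs no scaling between libraries. The 8 Schwann and glia markers summed to 205 to 409 CPM in Kit-K5- and 233 to 478 CPM elsewhere, with Sox10 and Erbb3, which epithelium also expresses, among the largest. Against Kit-K5-, 3 of the 8 were lower and 2 higher in Kit-K5+, and 0 lower and 1 higher in Kit+K5-. Their part in the Atp1b2 difference was not tested.

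**Figure D2:**
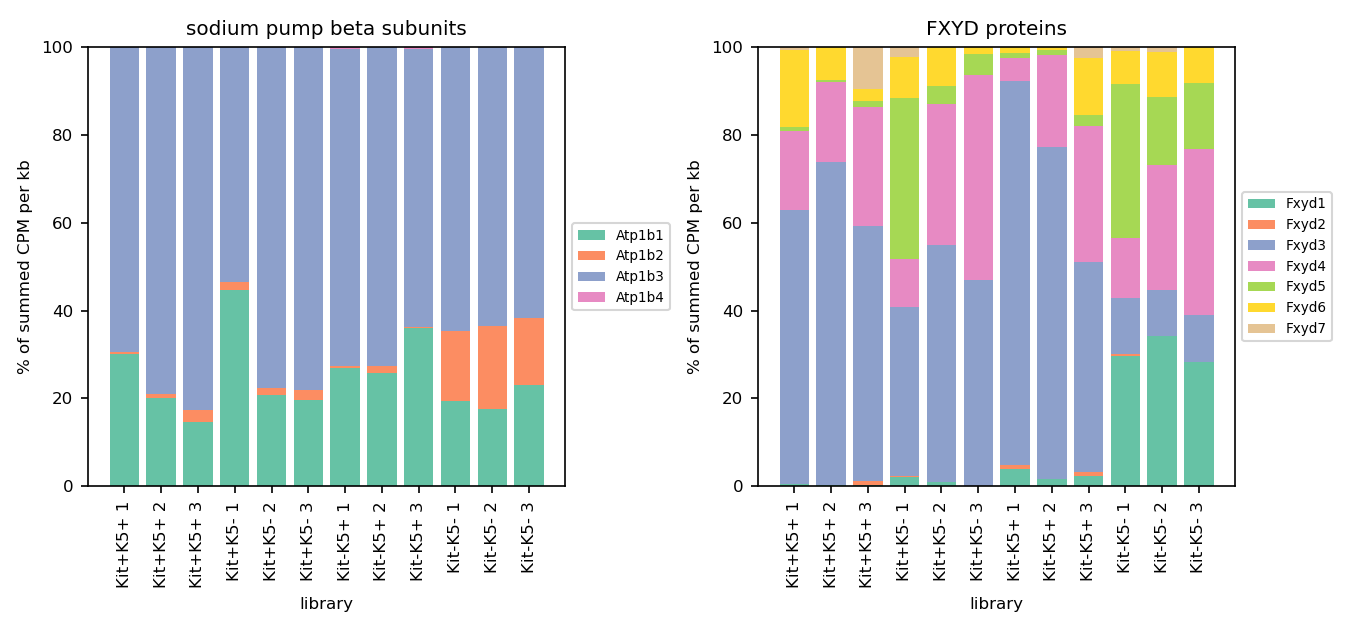
Stacked bars of the share (percent of summed CPM per kilobase) of each sodium pump beta subunit (left) and each FXYD gene (right) in the 12 libraries. The 3 Kit-K5- bars are the ones with a wide Atp1b2 band, at 16.7% on average, and with Fxyd1 at 30.8% in place of most of Fxyd3.

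FXYD proteins are small membrane partners that tune the pump. Of the 5 tested, 3 differed between Kit-K5+ and Kit-K5- and 2 between Kit+K5- and Kit-K5-. Of all genes 16.5% and 21.3% did. With so few genes, these counts are no result about the family. The genes called, Fxyd1, Fxyd3 and Fxyd5, lie in 1 cluster. On chromosome 7, minus strand (GRCm38), Fxyd5 (31032722 to 31042481), Fxyd7 (31042513 to 31051467), Fxyd1 (31051678 to 31057199) and Fxyd3 (31068172 to 31076704) follow each other within 43983 bases. On the TMM scale, the difference of Kit-K5+ from Kit-K5- was positive for Fxyd3 and negative for Fxyd1 and Fxyd5. For Kit+K5- minus Kit-K5-, Fxyd5 was not called, and its log2 value of 0.27 had the sign of Fxyd3 (2.23). Fxyd1 was at -4.15 there. On the epithelial scale Fxyd3 was called in neither comparison (0.70 and 0.07). To show the promoters of these 3 genes, the RefSeq windows of 300 bases (GRCm38.p6) are given in cluster order. Each spans 250 before to 50 after the start, read along the minus strand. The TATA motif TATAAA, the CAAT motif CCAAT and the GC motif GGGCGG on either strand are in capitals. The RefSeq start of Fxyd1 lies inside the GENCODE gene.
Fxyd5, chr7:31042282-31042581: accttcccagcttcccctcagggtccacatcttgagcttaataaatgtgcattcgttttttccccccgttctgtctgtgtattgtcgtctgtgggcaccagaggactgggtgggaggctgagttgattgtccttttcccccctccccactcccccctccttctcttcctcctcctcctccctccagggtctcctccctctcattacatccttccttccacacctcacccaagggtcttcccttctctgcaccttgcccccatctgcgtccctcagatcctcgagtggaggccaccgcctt
Fxyd1, chr7:31054804-31055103: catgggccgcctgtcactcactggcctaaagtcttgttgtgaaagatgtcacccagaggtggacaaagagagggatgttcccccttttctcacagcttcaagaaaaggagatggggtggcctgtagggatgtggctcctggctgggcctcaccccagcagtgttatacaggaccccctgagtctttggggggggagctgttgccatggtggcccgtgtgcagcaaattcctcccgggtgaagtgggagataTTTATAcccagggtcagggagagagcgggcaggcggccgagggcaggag
Fxyd3, chr7:31076648-31076947: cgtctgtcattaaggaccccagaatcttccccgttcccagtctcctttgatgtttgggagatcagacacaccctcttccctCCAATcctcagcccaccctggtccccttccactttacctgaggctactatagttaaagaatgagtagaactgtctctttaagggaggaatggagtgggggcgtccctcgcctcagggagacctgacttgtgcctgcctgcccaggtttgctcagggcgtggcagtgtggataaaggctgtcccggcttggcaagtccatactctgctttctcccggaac
Fxyd1 held TATAAA on the opposite strand, beginning at position 1 after its start, and Fxyd3 held CCAAT beginning at position -169. None of the 3 motifs was in the Fxyd5 window. Of 32851 RefSeq mouse windows of this length, 13.62% held the TATA, 37.41% the CAAT and 35.66% the GC motif. The 3 FXYD windows held 6, 6 and 7 CG dinucleotides against a median of 7.

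Fxyd3, an epithelial FXYD protein first found in breast tumours, stood at 62.5, 46.7 and 44.3 CPM in Kit+K5+, 75.5, 40.8 and 36.7 in Kit+K5-, 101, 57.8 and 25.6 in Kit-K5+, and 14.1, 9.73 and 8.68 in Kit-K5-. Every library of the first 3 groups was above every Kit-K5- library. On the TMM scale Kit-K5+ was 5.66-fold higher (log2 2.50 ± 0.43, adjusted p = 0.00179) and Kit+K5- 4.69-fold higher (2.23 ± 0.43, adjusted p = 0.00255), and on the epithelial scale the values kept their sign but not the call, at 0.70 and 0.07. Of its exon bases 42.5% overlap Lgi4 on the opposite strand, and without a stated strand setting reads there cannot be told apart. Lgi4 itself was at 0.0964 to 3.21 CPM.

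Fxyd1 (phospholemman, the FXYD protein of heart and muscle) was close to 0 outside Kit-K5-: 0.277, 0.0964 and 0.129 CPM in Kit+K5+, 1.80, 0.316 and 0 in Kit+K5-, 2, 0.550 and 0.574 in Kit-K5+, and 14.8, 14.3 and 10.4 in Kit-K5-. The fitted differences were -3.61 ± 0.89 for Kit-K5+ (adjusted p = 0.0141, lost without Kit-K5+ library 2) and -4.15 ± 0.91 for Kit+K5- (adjusted p = 0.00554). With so few counts their size depends on the fit. Fxyd1 also passed the filter on low counts only through the Kit-K5- libraries, so these calls are no independent support for its higher level there. The 8 skeletal muscle markers summed to 29.4 to 52.9 CPM in Kit-K5- and 10.1 to 95.3 CPM elsewhere, where Myh3 gave up to 91.2 CPM. Of the 5 tested, 2 were lower than in Kit-K5- in both comparisons. Actc1 was at 12.001, 6.28 and 27.9 CPM in Kit-K5- and at most 2.0004 elsewhere, and Tnnt1 was at 9.97, 4.21 and 6.23 CPM in Kit-K5- and at most 1.31 elsewhere. Their part in the Fxyd1 difference was not tested.

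Fxyd5 (dysadherin, which is known to lower E-cadherin function) split the K5- from the K5+ libraries. It stood at 0.922, 0.289 and 0.904 CPM in Kit+K5+ and 1.125, 0.824 and 1.15 in Kit-K5+, against 62.0, 2.74 and 3.204 in Kit+K5- and 33.4, 12.3 and 10.6 in Kit-K5-. All 6 K5- libraries were above all 6 K5+ libraries. In Kit- cells K5+ was lower, at a log2 difference of -4.18 ± 1.09 (adjusted p = 0.0189, lost without any 1 of the 3 Kit-K5+ libraries or Kit-K5- library 1). In Kit+ cells the value was -4.999 ± 1.12, with adjusted p = 0.235, and without Kit+K5- library 1 it was -2.06 ± 0.65 (adjusted p = 1). On the epithelial scale it was -4.82 (adjusted p = 0.0455).
The highest Fxyd5 values came from the libraries with the most leukocyte signal: the 11 leukocyte genes summed to 530 CPM in Kit+K5- library 1 and 1288 CPM in Kit-K5- library 1, against 89.4 to 96.8 and 212 to 357 CPM in the other libraries of those groups and 50.9 to 69.9 CPM in the K5+ libraries. Kit+K5- library 1 also had a mast cell sum of 5135 CPM, against 218 and 120 CPM in the other Kit+K5- libraries. Whether the leukocyte or the mast cell signal accounts for Fxyd5 was not tested. Without Kit+K5- library 1, the comparison of Kit+K5- with Kit-K5- turned from 0.27 to -2.66 ± 0.65 (adjusted p = 0.0111), and on the epithelial scale it turned to -2.13 (adjusted p = 0.0236). The remaining tested members were Fxyd4, a renal FXYD protein, at 2.38 to 14.7 CPM, and Fxyd6, at 0.412 to 15.4 CPM, and neither passed a test.

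For apical chloride exit, Ano1 (TMEM16A, the calcium-activated chloride channel of acinar cells; chromosome 7, 144588549 to 144751974) had its highest group mean in Kit+K5- and its lowest in Kit-K5- on the TMM scale. Its levels were 65.8, 42.4 and 45.1 CPM in Kit+K5+, 162, 69.8 and 46.3 in Kit+K5-, 38.1, 35.9 and 30.6 in Kit-K5+, and 16.5, 20.5 and 18 in Kit-K5-. Each Kit+ library was above each Kit- library. Kit+K5- was 5.06-fold higher than Kit-K5- (log2 2.34 ± 0.38, adjusted p = 7.23e-04) and by a log2 difference of 1.67 ± 0.27 without its library 1 of high mast cell signal (adjusted p = 8.59e-04). On the epithelial scale the difference was 0.13. The difference of Kit-K5+ from Kit-K5- was 0.93 ± 0.37 (adjusted p = 0.0998, and 0.0466 with the block on runs, turning to -0.83 with adjusted p = 0.0412 on the epithelial scale), and that of Kit+K5+ from Kit-K5+ was 0.55 ± 0.36 (adjusted p = 0.443).

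**Figure D3:**
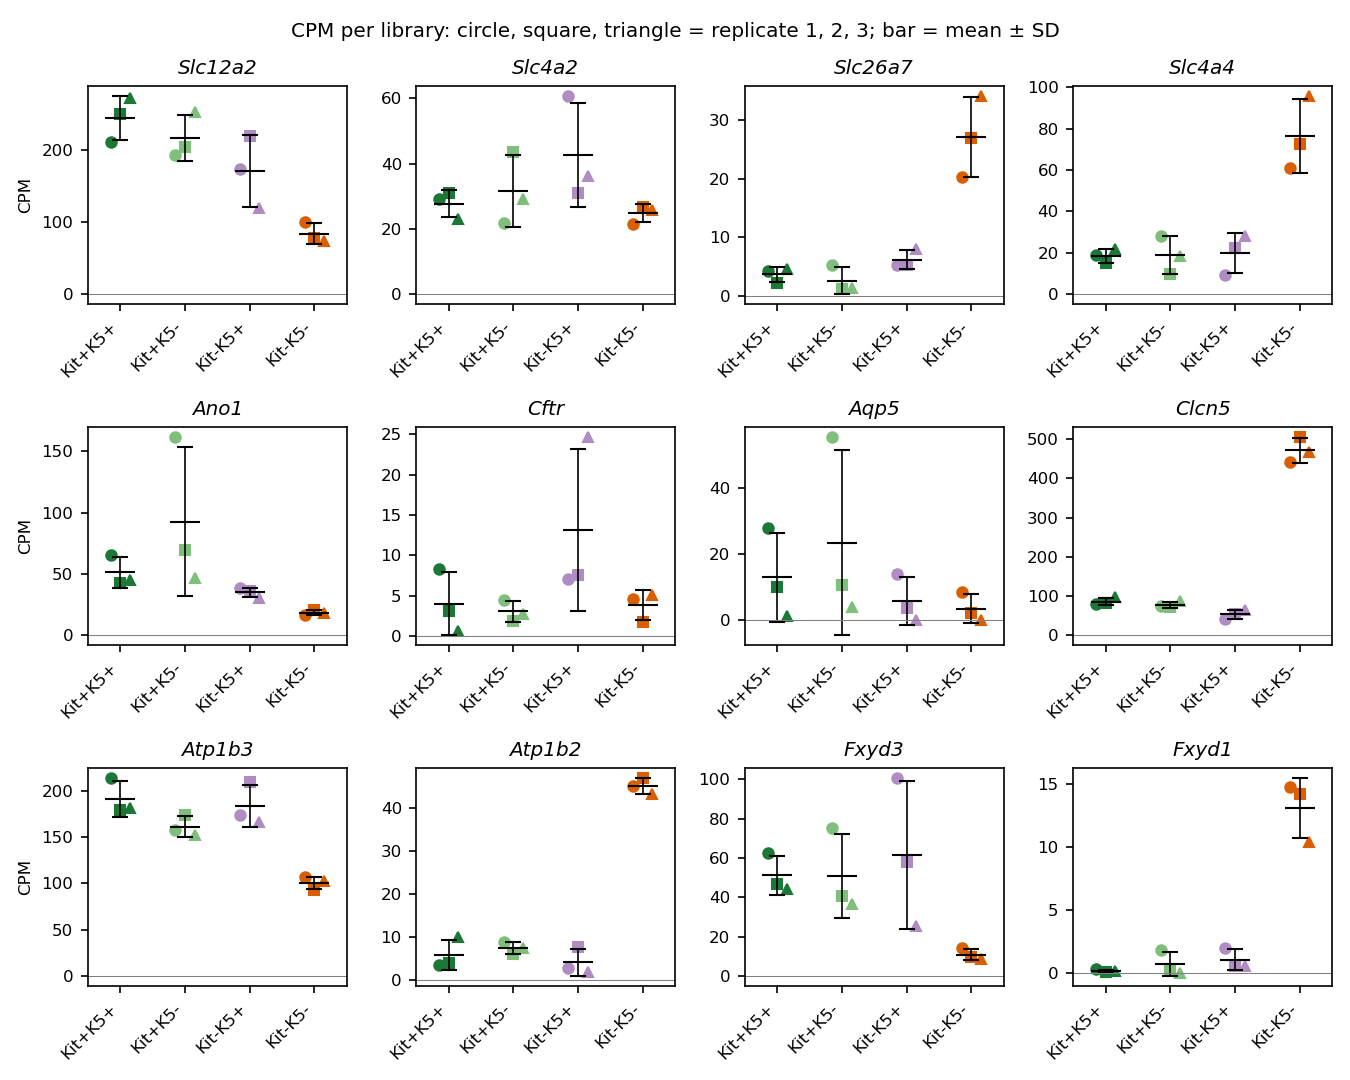
CPM of 12 genes in each of the 12 libraries (circle, square and triangle for libraries 1, 2 and 3 of a group), with bars at the mean ± SD of 3 libraries. Slc12a2, Ano1, Atp1b3 and Fxyd3 are lowest in Kit-K5- on this TMM scale (Slc12a2 and Atp1b3 turn in both comparisons when scaled to epithelial genes, and Ano1 against Kit-K5+), Slc4a4, Slc26a7, Clcn5, Atp1b2 and Fxyd1 are highest there, and Cftr and Aqp5 overlap between groups.

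Of the other anoctamins, 1 passed, between Kit+K5- and Kit-K5-, where 21.3% of all genes did. Ano9, found in several epithelia, was at 4.34, 2.99 and 3.75 CPM in Kit+K5+, 5.92, 4.63 and 7.72 in Kit+K5-, 0.875, 2.06 and 7.65 in Kit-K5+, and 0.262, 0.690 and 1.43 in Kit-K5-. Kit+K5- exceeded Kit-K5- by 2.95 ± 0.79 (adjusted p = 0.0170, lost without Kit-K5- library 1 or 2), and by 1.00 on the epithelial scale without a call. Ano6, a lipid scramblase found in most cells, was at 76.4 to 210 CPM and passed no comparison. The other 7 anoctamins passed none either, and Ano2 to Ano5 stayed below 5 CPM in every library.

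Cftr, the chloride and bicarbonate channel of ducts, was at 8.30, 3.09 and 0.646 CPM in Kit+K5+, 4.44, 1.90 and 2.77 in Kit+K5-, 7.002, 7.56 and 24.7 in Kit-K5+, and 4.59, 1.69 and 5.10 in Kit-K5-. The 3 Kit-K5+ libraries were above those of Kit-K5-, but the spread within Kit-K5+ was large and the difference of 1.78 ± 0.77 did not pass (adjusted p = 0.134). Slc26a6, an apical chloride-bicarbonate exchanger that works beside Cftr, gave 4.15, 5.11 and 1.81, 5.92, 5.69 and 1.17, 5.501, 5.91 and 1.34, and 5.71, 3.60 and 1.43 CPM in the same order. It passed no test (adjusted p = 0.983 among the 4 groups), and library 3 was the lowest in every group.

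The smallest adjusted p in the comparisons with Kit-K5- was that of Clcn5 (chromosome X, 7153810 to 7319358), a chloride-proton exchanger of endosomes, whose loss causes a renal protein-uptake defect. It stood at 78.3, 82.2 and 96.4 CPM in Kit+K5+, 74.3, 73.0 and 86.4 in Kit+K5-, 42.1, 52.9 and 63.5 in Kit-K5+, and 442, 506 and 466 in Kit-K5-. All Kit-K5- libraries lay above the other 9, and each Kit-K5+ library was below each Kit+ library. Against Kit-K5-, Kit-K5+ was 8.93-fold lower (log2 -3.16 ± 0.20, adjusted p = 1.81e-06) and Kit+K5- 6.06-fold lower (-2.60 ± 0.20, adjusted p = 1.97e-06), and no alternative ended either call. Clcn5 was 65.8% ± 2.68 of the summed CLC signal per kilobase in Kit-K5- and 21.7% ± 1.55 to 31.1% ± 3.08 in the other groups, and the summed signal was 62.5 ± 1.73 CPM per kilobase against 21.2 ± 3.53 to 24.8 ± 1.82.

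The other CLC transporters of intracellular membranes differed in direction. Clcn3, of endosomes and synaptic vesicles, was at 114, 72.5 and 110, 129, 84.99 and 111, 59.5, 79.0 and 88.6, and 47.1, 31.8 and 58.4 CPM in the order of groups used above. On the TMM scale Kit+K5- exceeded Kit-K5- by 1.24 ± 0.27 (log2, adjusted p = 0.00526) and Kit-K5+ by 0.73 ± 0.27 (adjusted p = 0.0808, and 0.0201 with the block on runs), and these turned to -0.80 (adjusted p = 0.0484) and -0.98 (adjusted p = 0.0212) on the epithelial scale, past the threshold in the opposite direction. Clcn6, of late endosomes, was at 18.6, 33.3 and 26.6, 31.2, 30.0 and 36.0, 23.3, 19.8 and 28.3, and 62.9, 47.8 and 59.0 CPM. The 3 Kit-K5- libraries were thus the highest for Clcn6, and the differences from them were -1.25 ± 0.25 for Kit-K5+ (adjusted p = 0.00444) and -0.80 ± 0.25 for Kit+K5- (adjusted p = 0.0331, lost without any 1 of 5 libraries). Clcn7 of lysosomes passed no test. Clcn2 was at 28.9 ± 5.36 CPM in Kit-K5- and 15.4 ± 3.74 in Kit+K5- (adjusted p = 0.0672, and 0.0341 with the block on runs).

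Of the 9 tested SLC26 anion transporters, 1 passed for Kit-K5+ against Kit-K5- and 2 for Kit+K5- against Kit-K5-, both highest in Kit-K5-. Of all genes 16.5% and 21.3% passed these comparisons. Slc26a7, an anion exchanger and channel of kidney, stomach and thyroid, stood at 20.3, 26.9 and 34.1 CPM in Kit-K5-, and at 4.34, 2.22 and 4.52 in Kit+K5+, 5.28, 1.26 and 1.31 in Kit+K5-, and 5.25, 5.22 and 8.03 in Kit-K5+. No other library came near the Kit-K5- values. The differences were -2.14 ± 0.52 for Kit-K5+ (adjusted p = 0.0138, lost without Kit-K5+ library 2) and -3.35 ± 0.55 for Kit+K5- (adjusted p = 8.90e-04). Slc26a11, of lysosomes and intercalated cells, was at 7.84, 8.002 and 6.85, 6.34, 5.27 and 6.12, 6.001, 4.67 and 8.99, and 11.9, 14.7 and 12.05 CPM. Kit+K5- was lower than Kit-K5-, at a log2 difference of -1.13 ± 0.35 (adjusted p = 0.0343), a call lost without any 1 of 7 libraries. Slc26a2, the sulfate transporter of cartilage and other tissues, was the most abundant of the family per length, at 66.0 to 131 CPM, and passed no test. Slc26a10, at 3.22 to 4.29 CPM in Kit-K5- and at most 1.16 elsewhere, did not pass without the block on runs (adjusted p = 0.0765 and 0.0584). It passed with the block (adjusted p = 0.0460 and 0.0470). On the epithelial scale it passed too, at -4.73 for Kit-K5+ (adjusted p = 0.00119) and -5.16 for Kit+K5- (adjusted p = 4.69e-04). Slc26a10 passed the filter on low counts only through the Kit-K5- libraries, so these calls are no independent support for its higher level there. Of its exon bases 17.8% overlap B4galnt1.

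**Figure D4:**
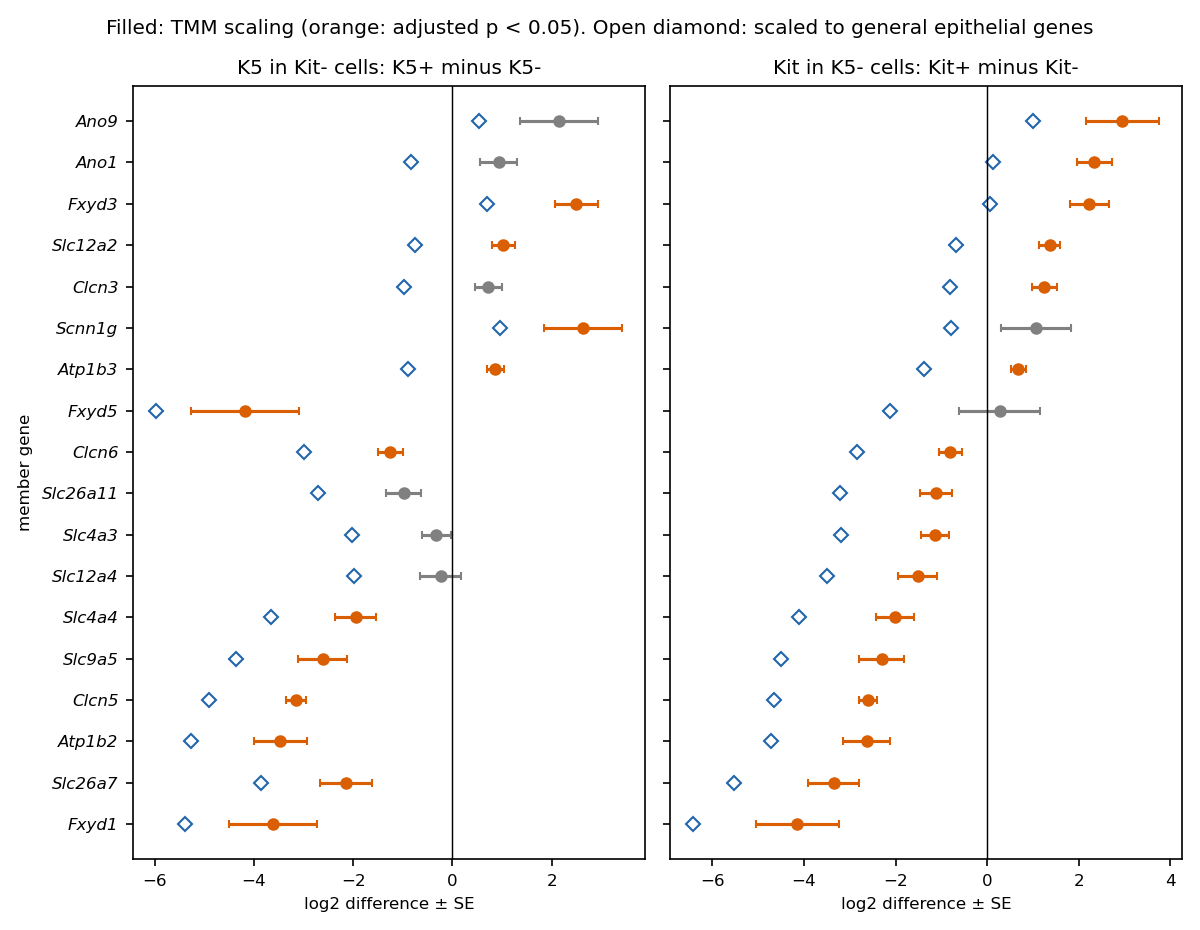
Log2 difference ± SE of 18 genes for Kit-K5+ minus Kit-K5- (left) and Kit+K5- minus Kit-K5- (right) after TMM scaling (filled, orange where adjusted p is under 0.05), with the value after scaling to general epithelial genes as an open diamond. Genes on the left of 0, such as Clcn5, Atp1b2, Fxyd1 and Slc26a7, lie further left on the epithelial scale, whereas Slc12a2, Atp1b3 and Clcn3 cross 0.

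Aqp5, the water channel through which acini pass fluid, varied widely within each group. It stood at 27.9, 10.03 and 1.29 CPM in Kit+K5+, 55.6, 10.8 and 4.08 in Kit+K5-, 14, 3.71 and 0 in Kit-K5+, and 8.46, 2.07 and 0 in Kit-K5-. In every group library 1 was the highest and library 3 the lowest, so the groups overlapped. Among libraries of 1 number, Kit+K5- was highest, Kit+K5+ next and the Kit- groups lowest. Kit+K5- against Kit-K5- gave 2.71 ± 1.41 (log2, adjusted p = 0.197) without and 3.11 ± 0.58 (adjusted p = 0.00143) with a block on the runs, and 0.33 on the epithelial scale. Aqp4 and Aqp11, the other aquaporins tested, were at 0.459 to 6.46 and 0.306 to 2.96 CPM and passed no test.

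The 12 libraries are numbered 1 to 12 in their titles, and numbers 1 to 4, 5 to 8 and 9 to 12 each hold 1 library of every group, which here are libraries 1, 2 and 3 of the groups. The labels do not say what a run shares. A test of the runs, chosen after seeing the data, called 4 of the 67 members (3.56% of all genes): Aqp5 (adjusted p = 0.00158), Slc26a9 (0.0318), Fxyd3 (0.0417) and Slc26a6 (0.0419). Slc26a9, a chloride channel of airway and stomach, went opposite to Aqp5, at 0.787 to 5.28 CPM in libraries 1 and 6.94 to 19.8 in libraries 3. With the block it was higher in Kit+K5- than in Kit-K5- (2.19 ± 0.47, adjusted p = 0.00378), and without it the value was 1.98 ± 0.80 (adjusted p = 0.0940).

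To show the start region of the gene with the smallest p between runs, the RefSeq window of Aqp5 (GRCm38.p6, plus strand, 300 bases with the same 3 motifs in capitals) is given. The GENCODE gene (chromosome 15, 99590782 to 99594829) begins further upstream than this start.
Aqp5, chr15:99590778-99591077: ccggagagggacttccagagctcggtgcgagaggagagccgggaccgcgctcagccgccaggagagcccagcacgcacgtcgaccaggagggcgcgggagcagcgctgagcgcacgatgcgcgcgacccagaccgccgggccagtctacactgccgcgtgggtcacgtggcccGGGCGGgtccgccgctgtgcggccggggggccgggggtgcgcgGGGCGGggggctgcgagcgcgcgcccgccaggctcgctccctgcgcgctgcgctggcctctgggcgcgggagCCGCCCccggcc
It held GGGCGG 3 times, beginning at positions -77 and -34 and, on the opposite strand, at 38. It had 46 CG dinucleotides, more than 98.35% of RefSeq windows. The FXYD windows held 6 or 7.

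**Figure D5:**
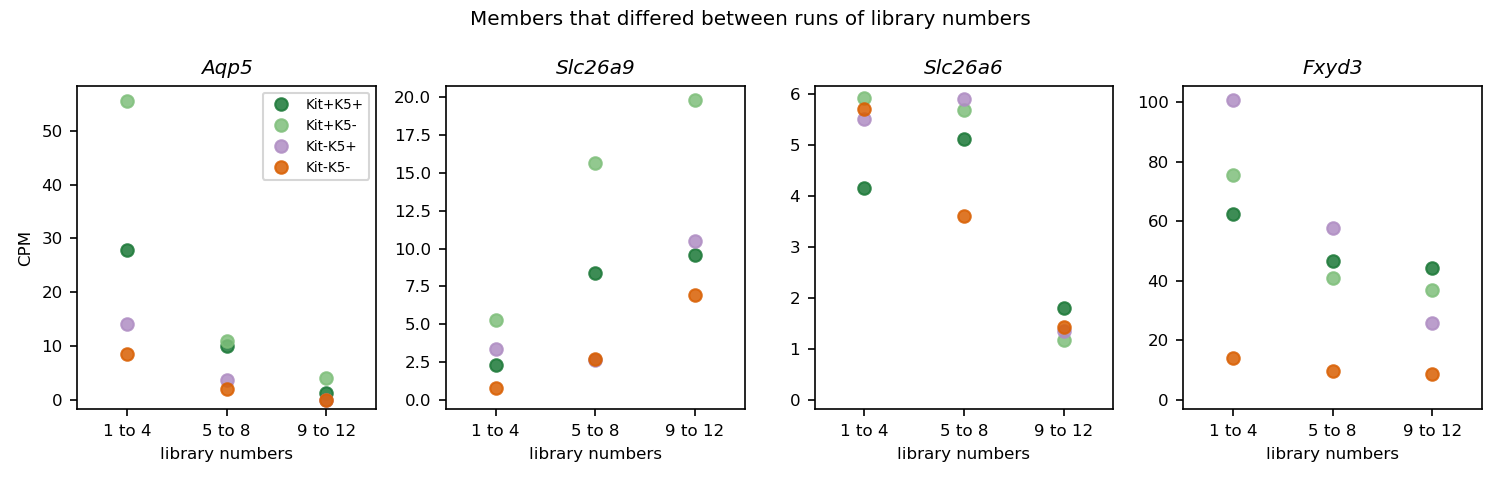
CPM of the 4 genes that differed between the runs of library numbers, with 1 point per library coloured by sorted group. In every group Aqp5 is highest in libraries 1 to 4, Slc26a9 is highest in libraries 9 to 12, Slc26a6 is low in libraries 9 to 12, and Kit-K5- is the lowest group for Fxyd3 in each set.

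Sodium reabsorption genes were at low levels. Scnn1g, the gamma subunit of the epithelial sodium channel, was at 10.3, 11.7 and 10.7 CPM in Kit-K5+ and 2.67, 4.72 and 1.03 in Kit+K5+, 1.69, 3.48 and 5.97 in Kit+K5-, and 0.262, 1.61 and 3.47 in Kit-K5-. The Kit-K5+ libraries agreed closely and lay above the other 9. Kit-K5+ exceeded Kit-K5- by 2.63 ± 0.78 (adjusted p = 0.0353), a call lost without any 1 of 5 libraries and on the epithelial scale (0.96). The alpha subunit Scnn1a was at 4.06, 2.70 and 0.388, 6.76, 3.26 and 2.04, 5.001, 1.37 and 1.53, and 4.79, 2.68 and 3.47 CPM and passed no test (adjusted p = 0.808 among the 4 groups). Scnn1b, below the filter, was at 0.830, 1.06 and 0, 0.317, 0.737 and 0, 0.250, 0.962 and 4.59, and 0, 0.460 and 1.74 CPM.

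The interaction asks whether the K5 difference in Kit+ cells departs from that in Kit- cells, and it called 3 of the 67 members, 4.48% against 4.02% of all genes. For Clcn5 the K5 difference was 0.14 in Kit+ and -3.16 in Kit- cells, a difference of 3.30 ± 0.27 (log2, adjusted p = 2.99e-05). For Atp1b2 it was -0.37 and -3.47 (3.10 ± 0.71, adjusted p = 0.0266), and for Fxyd3 0.00 and 2.50 (-2.50 ± 0.59, adjusted p = 0.0301). For each, the Kit-K5- values lay apart from the other 9 libraries. Clcn5 kept its call in all 21 alternatives, Atp1b2 in 12 and Fxyd3 in 11 of 21. With the block the count was 6 (8.33% of all genes), adding Slc4a4, Slc26a7 and Ano1.

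The regulators of fluid secretion, a list of 27 receptors, kinases, carbonic anhydrases, potassium channels and scaffolds of which 25 were tested, had 0 calls between the Kit+ groups (0 with DESeq2 and 0 at an unadjusted p under 0.05). Between the K5+ groups edgeR called 0 (0.658% of all genes), DESeq2 called 2 and the block on runs 3 (4.63% of all genes), and 8 were at an unadjusted p under 0.05 (18.5% of all genes). Against Kit-K5-, 5 were higher and 6 lower in Kit-K5+ (16.5% of all genes were called), and 9 higher and 3 lower in Kit+K5- (21.3% of all genes). On the epithelial scale these counts turned to 1 higher and 16 lower, and 0 higher and 15 lower. The medians of all tested genes moved to -1.71 and -2.02 on that scale. The share of all genes called is not given there or with DESeq2. Kcnn4, the calcium-activated potassium channel that keeps acinar chloride exit going, had group means of 63.2 ± 31.9 CPM for Kit+K5+, 91.7 ± 54.5 for Kit+K5-, 8.50 ± 5.04 for Kit-K5+ and 11.7 ± 8.32 for Kit-K5-. Its difference among K5- cells was 2.96 ± 0.65 (adjusted p = 0.00540, 0.71 on the epithelial scale) and among K5+ cells 2.89 ± 0.66 (adjusted p = 0.0605, and 2.84 ± 0.40 with adjusted p = 0.00377 with the block on runs). Chrm3, the muscarinic receptor that starts secretion, stood at 2.97 ± 0.627 CPM in Kit-K5- and 49.2 ± 48.3 in Kit-K5+, where it was higher by 4.05 ± 0.62 (adjusted p = 6.70e-04), also on the epithelial scale (2.26, adjusted p = 0.00224).

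Further regulators passed as well. Wnk2, a kinase of the pathway that activates Slc12a2, was at 30.6 ± 8.45 CPM in Kit-K5- and 108 ± 11.2 to 146 ± 28.8 elsewhere, higher in Kit-K5+ by 1.82 ± 0.23 (adjusted p = 1.65e-04) and near 0 on the epithelial scale (0.10). Ezr, which ties apical transporters to actin, was at 61.0 ± 9.86 CPM in Kit-K5- and 152 ± 16.8 to 225 ± 44.5 elsewhere (1.32 ± 0.21 in Kit-K5+, adjusted p = 9.74e-04, turning to -0.42). Car12, a membrane carbonic anhydrase, was at 145 ± 89.7 CPM in Kit-K5- and 545 ± 149 to 602 ± 163 elsewhere (1.99 ± 0.47 in Kit-K5+, adjusted p = 0.0109, 0.25 on the epithelial scale). The scaffold Slc9a3r2 went the other way, at 46.5 ± 16.9 CPM in Kit-K5- and 4.91 ± 2.20 in Kit-K5+ (-3.23 ± 0.46, adjusted p = 4.10e-04), and stayed so on the epithelial scale. The carbonic anhydrase Car2 and the kinases Wnk4 and Wnk1 also had their highest group means in Kit-K5-. Car2 was at 11.8 ± 1.60 CPM there and 0.402 ± 0.496 in Kit-K5+ (-4.96 ± 1.05, adjusted p = 0.00615). Wnk4 was at 12.4 ± 3.81 and 2.91 ± 2.36 CPM (-2.07 ± 0.59, adjusted p = 0.0293). Wnk1 passed for Kit+K5- (-0.55 ± 0.18, adjusted p = 0.0410) and not for Kit-K5+. Itpr2, Best2 and Lrrc8a were called as lower in Kit-K5+, and Chrm1 as higher.

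Of the 14 genes of the textbook secretion model (among them Slc12a2, Slc4a2, Slc4a4, Slc4a7, Ano1, Cftr, Aqp5, Atp1b1, Slc26a6 and the 3 sodium channel subunits), 13 were tested. On the TMM scale, Kit-K5+ against Kit-K5- had 2 higher (Slc12a2 and Scnn1g) and 1 lower (Slc4a4), and Kit+K5- against Kit-K5- had 3 higher (Slc12a2 and Ano1 among them) and 1 lower (Slc4a4). These are 23.1% and 30.8% of the 13, against 16.5% and 21.3% of all genes. On the epithelial scale Slc12a2 turned, as given above. On the TMM scale their summed CPM had group means of 1102 ± 130 for Kit+K5+, 1110 ± 173 for Kit+K5-, 909 ± 106 for Kit-K5+ and 663 ± 24.4 for Kit-K5-. The 18 epithelial genes summed to 2498 ± 799, 2356 ± 555, 1836 ± 148 and 549 ± 74.8 CPM in the same order. The textbook sum thus exceeded the epithelial sum in Kit-K5- and lay below it in the other groups, so its order depends on the scale.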

How the data were processed

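The 12 libraries were 50-base single reads. Per the labels' protocols and the submitters' processing notes, which name FastQC, STAR 2.4.2a, Picard 1.129, featureCounts 1.4.6-p3 (Subread) and GRCm38.p3, reads were aligned and counted per gene. The authors deposited raw, unnormalised counts per gene. Annotation release and strandedness were not given in the sources used here. Depth was 5589037 to 13724364 counts.

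Counts were fitted for all genes with edgeR 4.0.16 in R 4.3.3 (quasi-likelihood test, TMM scaling, filterByExpr, 1 coefficient per group, Benjamini-Hochberg adjustment over 17030 genes, threshold 0.05). The common biological coefficient of variation was 0.437 with 8 residual degrees of freedom, and the SE is the log2 difference divided by the square root of F. CPM per kilobase used GENCODE M21 exon lengths (GRCm38), in which all 86 members were found. RefSeq windows were found for 63 of them. On simulated data, 93 of 100 genes changed 4-fold and 25 of 100 changed 2-fold were recovered for K5 in Kit+ cells, among 16306 genes. For the interaction 62 and 8 of 100 were recovered. The changed genes were drawn only from well expressed genes, and their spread followed the fitted trend. The recovery therefore does not hold for members with few counts or a wider spread.

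Values in every library were given for the textbook secretion genes and for members past 0.05 in any test (up to 25, smallest adjusted p among the 4 groups first). Members below the filter are named with their summed counts, and some of the regulators past 0.05 are described. A few members are not reported here by name, but they stay in all fits and counts. The members and lists were chosen with earlier results of these data known. The labels do not pair the samples by runs of library numbers, and the data do so only in part. Deviations from group means correlated within runs at 0.263 to 0.369 (K5 in Kit+ cells), 0.153 to 0.207 (K5 in Kit- cells), 0.108 to 0.156 (Kit in K5+ cells) and 0.299 to 0.408 (Kit in K5- cells). Over all 18 pairs within runs they ranged from 0.0928 to 0.408. Pairs from different runs ranged from -0.394 to 0.197, so the ranges overlap. Deviations from a mean of 3 libraries sum to 0, which pushes values between runs below 0. Alternatives were DESeq2 1.42.0, RLE, upper-quartile and epithelial-gene scaling, no filter, only the groups compared, the replicate block and leaving out each library. Leaving out runs or all Kit-K5- libraries was chosen after seeing the data.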

Additional observations from a re-analysis of the deposited data

Results flagged for a closer look

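For 3 of the 67 members the K5 difference itself differed between Kit+ and Kit- cells by the interaction test. This is 4.48% against 4.02% of all genes, so the count says nothing particular about ion transport genes. The K5 difference in Kit+ cells minus that in Kit- cells was 3.30 for Clcn5, 3.10 for Atp1b2 and -2.50 for Fxyd3 on the log2 scale, with adjusted p from edgeR of 2.99e-05, 0.0266 and 0.0301. The Kit-K5- libraries, which enter each value, also had the lowest epithelial and highest mesenchyme marker sums, and the part of these in the differences was not tested. Of 21 alternatives, the call held in all 21 for Clcn5, in 12 for Atp1b2 and in 11 for Fxyd3, which lost it on the epithelial scale.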

How the results depend on the processing

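Scaling to general epithelial genes moved the counts of members called to 1 (K5 in Kit+ cells), 39 (K5 in Kit- cells), 47 (Kit in K5- cells), 23 (interaction) and 51 (among the 4 groups). For this and the alternatives below without the block, the share of all genes called is not given. The counts therefore say nothing particular about ion transport genes. With the epithelial scaling the medians of all tested genes moved too, to -1.71 (K5 in Kit- cells) and -2.02 (Kit in K5- cells). On that scale these log2 differences of the genes followed singly turned and passed the test on 1 scale or both: for K5 in Kit- cells Ano1 -0.83, Atp1b3 -0.89, Clcn3 -0.98, Slc12a2 -0.76, Slc4a2 -0.97 and Slc4a7 -1.40, and for Kit in K5- cells Atp1b1 -1.02, Atp1b3 -1.39, Clcn3 -0.80, Fxyd5 -2.13, Scnn1a -2.05, Slc12a2 -0.68, Slc26a6 -1.99, Slc4a2 -1.69 and Slc4a7 -1.67. With no filter the counts were 1 (K5 in Kit+ cells), 2 (Kit in K5+ cells) and 9 (interaction), and with DESeq2 5 (Kit in K5+ cells) and 6 (interaction). Leaving out libraries 5 to 8 gave 2 (K5 in Kit- cells), 5 (Kit in K5- cells), 1 (interaction) and 3 (among the 4 groups), and leaving out libraries 9 to 12 gave 11 (Kit in K5- cells), each with 2 libraries a group. Leaving out 1 library at a time gave 7 to 14 (K5 in Kit- cells, 7 without Kit-K5+ library 2), 0 to 1 (Kit in K5+ cells), 13 to 20 (Kit in K5- cells), 1 to 4 (interaction, 1 without Kit+K5+ library 3, Kit-K5+ library 1 or Kit-K5- library 2) and 13 to 21 (among the 4 groups). Fxyd5 for Kit in K5- cells ran from -2.66 without Kit+K5- library 1 to 0.96 without Kit-K5- library 1. Apart from the scaling to epithelial genes, the cause of these changes was not tested.

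With the replicate block the counts were 2 (Kit in K5+ cells) and 6 (interaction), and every call made without it was kept. Of 31 calls of single genes named, 18 held in every fit that left out 1 library and 6 in all alternatives run: Atp1b2 and Clcn5 for K5 in Kit- and Kit in K5- cells, Clcn5 for the interaction and Slc26a7 for Kit in K5- cells.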
